A study of Mus musculus with 6 samples.

Results

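The genes examined here belong to the amino acid arm of the integrated stress response, the programme run by the transcription factor ATF4. They were taken as the probe sets that the array annotation assigns to 1 listed gene alone, for a list of 38 genes: ATF4 and its regulators and effectors, enzymes that make serine, glycine, asparagine, proline and cysteine, mitochondrial and cytosolic one-carbon enzymes, and cytosolic aminoacyl-tRNA synthetases. Of the 38 genes 37 were measured, by 83 probe sets, out of 10892 genes tested on the array, and Pycr1 is not analysed here. Where a gene had several probe sets the brightest on average stands for it, and all 37 were bright enough to be tested.

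The cells were As4.1, an established mouse line from a kidney tumour of a mouse that carried the SV40 large T antigen, used as a model of renin-secreting cells. They received an interleukin (which one is not said in the labels), the oxidant hydrogen peroxide, or vehicle, and the doses and times are not given in the sources used here. Each of the 3 groups had 2 separate cultures and each culture 1 array, so that 6 arrays were compared and all groups share the line and the T antigen. Values are MAS5 signals, which are array brightness on a linear scale set by the authors to the same trimmed mean on every array.

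In this pathway kinases that sense stress phosphorylate the translation initiation factor eIF2alpha, which lowers general protein synthesis while the Atf4 mRNA is translated more. The resulting ATF4 protein, often paired with a C/EBP partner, raises genes that import and make amino acids and charge tRNAs. Much of the control of ATF4 is known to lie at translation rather than at its mRNA. The kinase GCN2 (Eif2ak4) senses uncharged tRNA, PERK (Eif2ak3) senses unfolded protein in the endoplasmic reticulum, and a phosphatase guided by Ppp1r15a or Ppp1r15b removes the mark.

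ATF4 and its C/EBP partners are known to bind composite sites with the letters TGATGNAA, where N is any base, so these letters were searched on both strands (TTNCATCA on the other) in RefSeq promoter windows of build GRCm38.p6. The windows run from 250 bases before to 50 bases after a gene's start. Of the 37 genes 30 had a window, and 10 of these 30 (33.3%) held the letters, against 1219 of 27025 genes in the table (4.51%). The 10 were Asns, Chac1, Trib3, Gars, Aars, Iars, Tars, Yars, Nupr1 and Vldlr. A match is a description of the letters and not evidence of binding in these cells. The 250 bases before the start are printed for 5 genes, with the match in capitals. The first 3 genes rose with hydrogen peroxide and the last 2 did not pass the test. The windows are Asns at chr6:7693210-7693459 on the minus strand, Chac1 at chr2:119350992-119351241 on the plus strand, Gars at chr6:55037751-55038000 on the plus strand, Tars at chr15:11399659-11399908 on the minus strand and Nupr1 at chr7:126625471-126625720 on the minus strand.
Asns: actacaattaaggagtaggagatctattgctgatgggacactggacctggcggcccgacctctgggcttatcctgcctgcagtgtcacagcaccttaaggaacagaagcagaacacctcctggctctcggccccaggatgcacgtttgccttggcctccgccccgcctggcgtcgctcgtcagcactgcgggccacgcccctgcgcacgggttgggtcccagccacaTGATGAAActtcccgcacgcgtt
Chac1: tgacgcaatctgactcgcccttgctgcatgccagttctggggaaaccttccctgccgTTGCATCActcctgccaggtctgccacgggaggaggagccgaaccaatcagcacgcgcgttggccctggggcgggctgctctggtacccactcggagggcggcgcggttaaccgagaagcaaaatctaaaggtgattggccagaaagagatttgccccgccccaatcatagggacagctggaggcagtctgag
Gars: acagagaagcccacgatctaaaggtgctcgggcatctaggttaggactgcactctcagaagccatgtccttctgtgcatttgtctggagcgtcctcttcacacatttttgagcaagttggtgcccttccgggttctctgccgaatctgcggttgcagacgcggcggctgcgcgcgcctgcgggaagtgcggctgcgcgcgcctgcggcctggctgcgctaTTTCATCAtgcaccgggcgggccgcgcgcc
Tars: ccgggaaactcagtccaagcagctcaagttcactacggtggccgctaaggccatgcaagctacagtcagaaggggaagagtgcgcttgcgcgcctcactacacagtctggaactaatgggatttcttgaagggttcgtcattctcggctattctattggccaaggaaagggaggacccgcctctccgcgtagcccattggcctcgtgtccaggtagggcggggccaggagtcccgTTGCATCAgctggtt
Nupr1: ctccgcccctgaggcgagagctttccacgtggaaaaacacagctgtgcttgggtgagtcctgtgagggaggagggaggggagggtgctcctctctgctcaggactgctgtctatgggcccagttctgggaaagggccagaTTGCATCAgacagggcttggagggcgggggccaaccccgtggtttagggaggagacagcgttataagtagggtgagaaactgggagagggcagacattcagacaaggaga
The match began 23 bases before the start in Asns, 193 in Chac1, 30 in Gars, 15 in Tars and 110 in Nupr1. Among the 11 genes with a window that rose with hydrogen peroxide 4 held the letters, against 6 of the 19 genes with a window that did not pass.

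The arrays had medians of 192.2 to 232.3. The beta-actin control probes at the 3' end over those at the 5' end, a ratio that rises as RNA is shorter or less fully copied, gave 1.46 and 1.55 in the interleukin group, 1.35 and 1.32 in the hydrogen peroxide group and 1.22 and 1.26 in the vehicle group. The Pcx ratio was 2.30 and 2.46 with interleukin, 2.89 and 2.03 with hydrogen peroxide and 1.66 and 1.59 with vehicle, and the Tfrc ratio was 3.05 and 3.95 with interleukin, 3.54 and 2.30 with hydrogen peroxide and 1.85 and 2.14 with vehicle. The Gapdh ratio lay between 0.825 and 0.873 on all 6 arrays. The part of these ratios in the results was not tested. Of the markers of renin-lineage and mural cells, Pdgfrb, Tbx18, Foxd1, Acta2 and Cspg4 were bright enough to be tested, while Rgs5, Des, Gja4 and Gja5 were not, and Ren1 and Akr1b7 are not analysed here. The 9 measured markers summed to 28294 to 35345 with interleukin, 21848 to 22646 with hydrogen peroxide and 20881 to 21483 with vehicle. By limma Pdgfrb (log2 0.56, adjusted p = 0.00327) and Acta2 (0.99, adjusted p = 0.00305) rose with interleukin, and Foxd1 fell with interleukin (-0.60, adjusted p = 0.0257) and with hydrogen peroxide (-0.98, adjusted p = 0.00660). The summed signal of 7 leukocyte markers was 1920.2 to 2218 in interleukin cultures, 1813 to 1814 in hydrogen peroxide cultures and 1267 to 1349 in vehicle cultures. Most of it came from Cd68, a lysosomal protein, and Csf1r. Ptprc, which defines leukocytes, lay between 21.3 and 125.7 on all 6 arrays, below the lowest mean signal tested (193.7). Of 6 endothelial markers Pecam1 and Cdh5 lay at 206.3 or less on every array. The receptor Kdr was bright, with 8069 and 11214 in interleukin cultures, 11315 and 10461 in hydrogen peroxide cultures and 13235 and 15690 in vehicle cultures. By limma it fell with interleukin (log2 -0.60, adjusted p = 0.0194) and did not pass with hydrogen peroxide (-0.405, adjusted p = 0.134). Tek was too dim to be tested, and its treated arrays lay above its vehicle arrays. The summed signal of 8 epithelial markers was 994.2 to 1346 in interleukin cultures, 1024 to 1033 in hydrogen peroxide cultures and 1168 to 1291 in vehicle cultures. In bulk RNA fewer cells of a kind and less RNA per cell cannot be told apart, and the part of other cell types in the results was not tested.

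Hydrogen peroxide against vehicle addressed the response of these cells to an oxidant. ATF4 target genes rose, led by asparagine synthetase (Asns, 3.10-fold), phosphoglycerate dehydrogenase (Phgdh, 2.55-fold) and the pseudokinase Trib3 (2.20-fold), while the Atf4 mRNA itself did not pass the test. Of the 37 genes 13 rose and 0 fell by limma at an adjusted p under 0.05 (25 higher and 0 lower at an unadjusted p under 0.05). Over all 10892 genes 4.08% rose and 2.91% fell. The median log2 change was 0.35 over the 37 genes and 0.06 over all genes. In 29 of the 37 genes both hydrogen peroxide arrays lay above both vehicle arrays, in 8 they overlapped and in 0 they lay below, against 36.5% of all genes above and 23.0% below. With 2 arrays per group the calls depended on single arrays: without vehicle array 1 limma called 0 of the 37 (19 at an unadjusted p under 0.05), without vehicle array 2 it called 2 (Asns and Atf5), without hydrogen peroxide array 1 it called 3 (Asns, Atf5 and Ddit3) and without hydrogen peroxide array 2 it called 4 (Asns, Atf5, Cth and Ddit3). Each of these fits leaves a compared group with 1 array. Calls over the whole array also fell without either vehicle array or without hydrogen peroxide array 1. The part of a given array and the part of having fewer arrays cannot be told apart here. The median change stayed between 0.30 and 0.41 (log2) when any 1 of the 6 arrays was left out, and with the variance modelled without a trend on signal 0 genes were called (20 at an unadjusted p under 0.05).

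**Figure D1:**
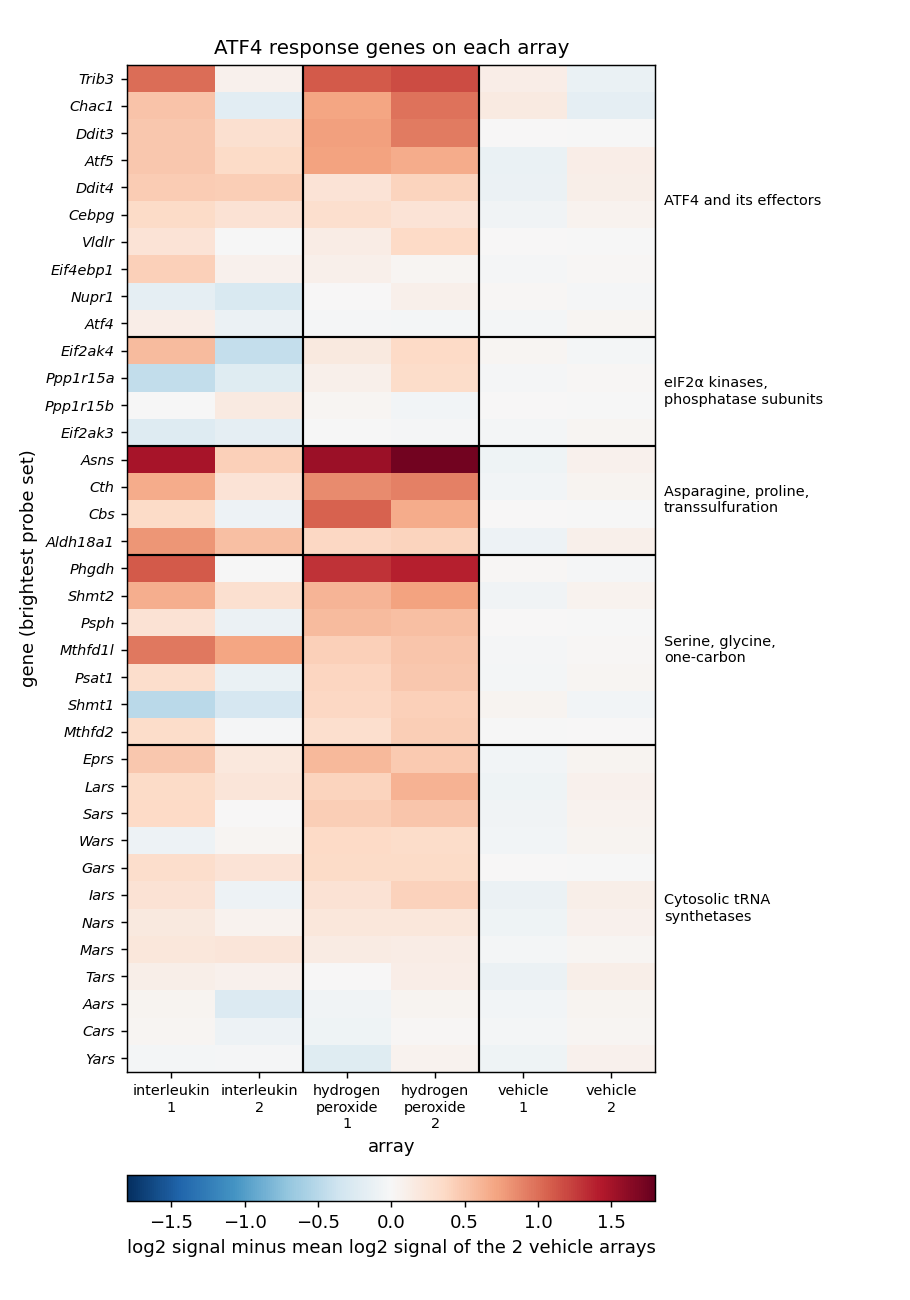
Log2 signal of each of the 37 genes (rows, grouped by role) on each of the 6 arrays (columns), relative to the mean log2 signal of the vehicle arrays; red is higher and blue lower. Asns, Phgdh and Trib3 are red on both hydrogen peroxide arrays and on interleukin array 1 and much paler on interleukin array 2.

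Interleukin against vehicle addressed the response to the cytokine. Enzymes of mitochondrial folate and proline synthesis had the smallest p among the genes that rose. Of the 37 genes 7 rose and 0 fell (14 higher and 3 lower at an unadjusted p under 0.05), namely Mthfd1l, Aldh18a1, Ddit4, Atf5, Shmt2, Asns and Gars. Over all genes 9.78% rose and 6.61% fell with interleukin. The median log2 change was 0.16 over the 37 genes and 0.03 over all genes, and dropping interleukin array 1 gave 0.03 for the 37 genes while dropping array 2 gave 0.33. Both interleukin arrays lay above both vehicle arrays in 14 genes and below them in 4 (Shmt1, Ppp1r15a, Eif2ak3 and Nupr1), against 32.7% and 26.0% of all genes. The number of calls was 11 without interleukin array 2, 3 without interleukin array 1, 2 without vehicle array 1 and 4 without vehicle array 2. The difference between the counts for the treatments (7 and 13) was not tested. The hydrogen peroxide count was also the higher one under quantile normalization (15 against 8), 75th percentile centring (11 against 6) and no filter on signal (7 against 4). The same held with a stricter filter (15 against 10), robust variance (11 against 6) and a replicate block (11 against 7). The interleukin count was the higher one with no variance trend (2 against 0). It was also higher when a vehicle or a hydrogen peroxide array was left out, which leaves that group with 1 array. The interleukin count was 3 of 28 genes once probe sets able to match several transcripts were left out. These were Asns, Ddit4 and Gars, while Aldh18a1 and Shmt2 did not pass. Mthfd1l and Atf5 had no other probe set to test.

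Interleukin was also set directly against hydrogen peroxide, a comparison that does not use the vehicle arrays for its means. Here 4 genes were lower with interleukin and 0 higher (15 lower and 2 higher at an unadjusted p under 0.05), namely Shmt1, Ppp1r15a, Psph and Ddit3. Over all genes 4.06% were lower and 6.30% higher. The median log2 difference was -0.20 over the 37 genes and -0.04 over all genes, and the 37 genes gave -0.32 when interleukin array 1 was dropped and -0.04 when array 2 was. In 19 genes both interleukin arrays lay below both hydrogen peroxide arrays, against 31.4% of all genes, and in 4 genes (Ddit4, Mthfd1l, Aldh18a1 and Mars) they lay above, against 24.0%. Without interleukin array 1 the count was 10 lower, and without interleukin array 2 it was 2 lower and 1 higher. It was 2 without hydrogen peroxide array 1, and 1 without hydrogen peroxide array 2, without vehicle array 1 or without vehicle array 2, the gene being Shmt1 in these last 3 cases.

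**Figure D2:**
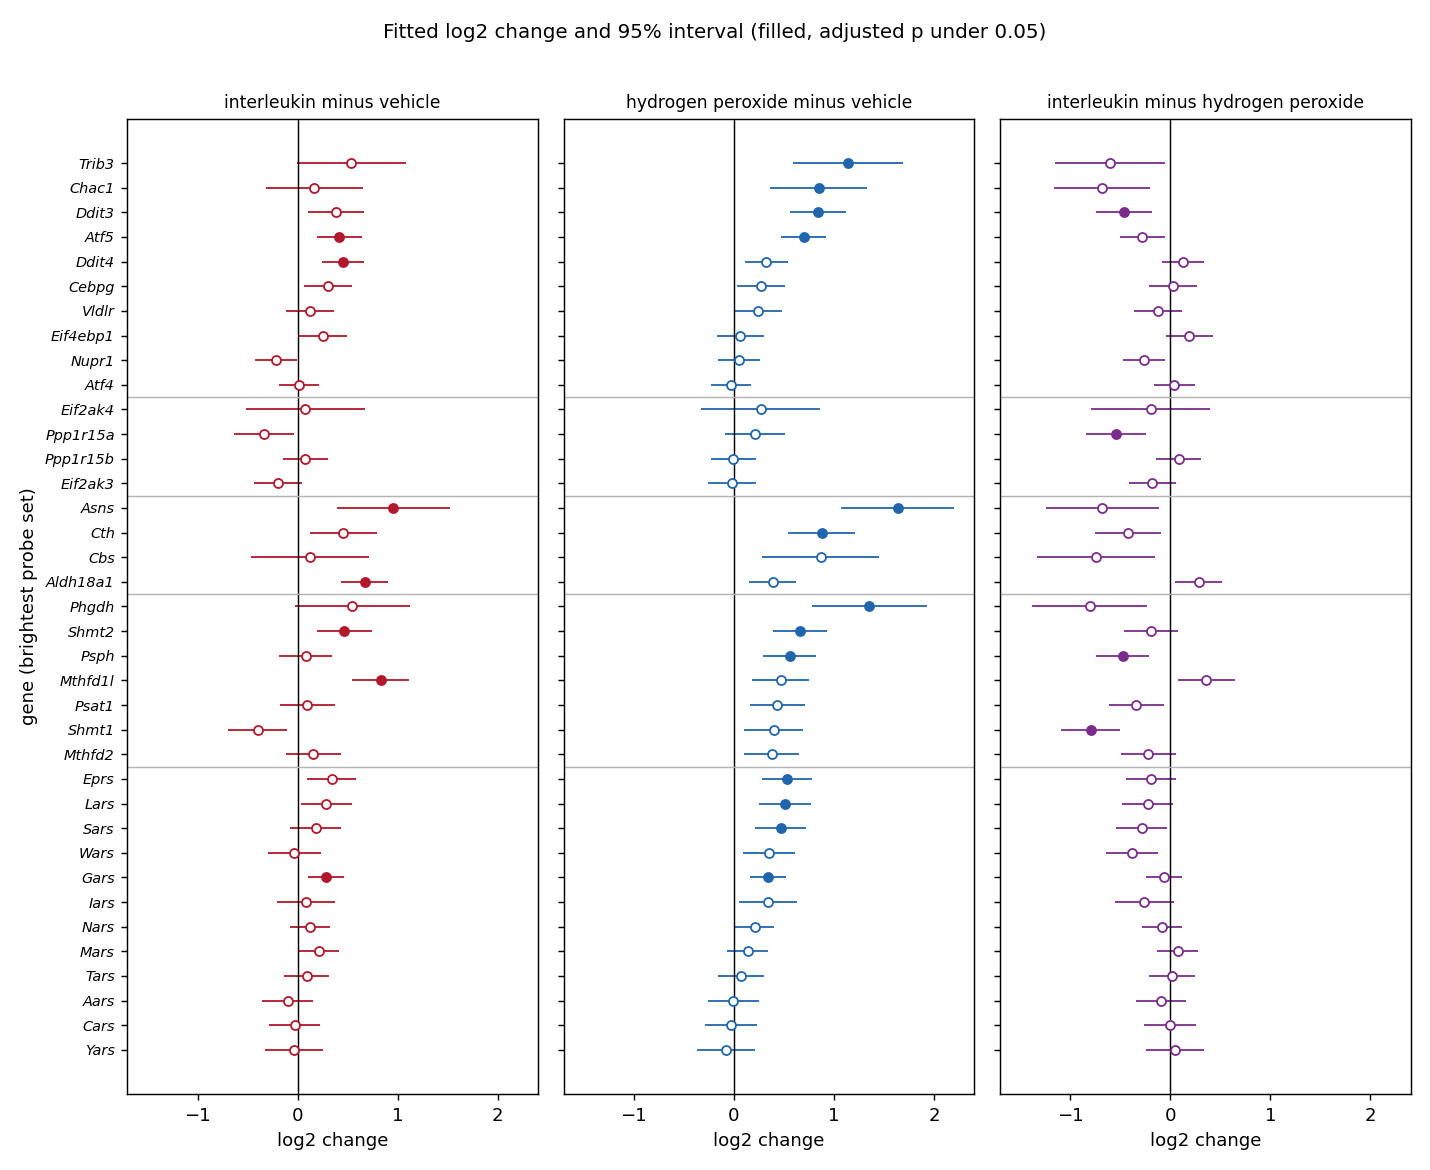
Fitted log2 change (points) with its 95% interval (bars) for each of the 37 genes in the 3 comparisons, by role; filled points passed the test at an adjusted p under 0.05. The filled points number 7 for interleukin minus vehicle, 13 for hydrogen peroxide minus vehicle and 4 for interleukin minus hydrogen peroxide.

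Among ATF4 and its regulators and effectors, 4 of 10 genes rose with hydrogen peroxide and 2 of 10 with interleukin, beside 4.08% and 9.78% of all genes. Atf4 (1448135_at) had signals of 24114 and 20578 in interleukin cultures, 21793 and 21487 in hydrogen peroxide cultures and 21500.1 and 22740 in vehicle cultures. The groups overlapped, and the 95% interval of the log2 change was -0.19 to 0.21 for interleukin and -0.23 to 0.17 for hydrogen peroxide. A second probe set of Atf4 (1438992_x_at) had both treatments above vehicle, with log2 changes of 0.24 for interleukin (adjusted p = 0.149 by limma) and 0.08 for hydrogen peroxide (adjusted p = 0.713).

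Atf5, a transcription factor related to ATF4 and likewise controlled at translation, read 13088 and 11905 in interleukin cultures, 15477 and 14792 in hydrogen peroxide cultures and 8630 and 10122 in vehicle cultures. The 3 groups did not overlap, with hydrogen peroxide at the top and vehicle at the bottom. It rose by 0.42 ± 0.10 with interleukin (log2, SE, limma adjusted p = 0.0202) and by 0.70 ± 0.10 with hydrogen peroxide (adjusted p = 0.00496). Ddit3 encodes CHOP, a C/EBP family factor of prolonged stress. Its signals were 3669 and 3183 with interleukin, 4386 and 5023 with hydrogen peroxide and 2632 and 2604 with vehicle. It rose by 0.84 ± 0.13 with hydrogen peroxide (log2, SE, adjusted p = 0.00526), changed by 0.38 with interleukin (adjusted p = 0.0643), and was lower with interleukin than with hydrogen peroxide (log2 -0.46, adjusted p = 0.0491).

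Trib3, a pseudokinase that damps ATF4 and CHOP, had 2537 and 1331 in interleukin cultures, 2716 and 2861 in hydrogen peroxide cultures and 1374 and 1166 in vehicle cultures. Interleukin array 1 was close to the hydrogen peroxide arrays and interleukin array 2 lay between the vehicle arrays. Trib3 rose by 1.14 ± 0.25 with hydrogen peroxide (log2, SE, adjusted p = 0.0256), as did its second probe set (1.10, adjusted p = 0.0491). Chac1, an enzyme that degrades glutathione, read 2341 and 1440 with interleukin, 2691 and 3226 with hydrogen peroxide and 1834 and 1461 with vehicle, and interleukin array 2 was the lowest of all. It rose by 0.85 ± 0.22 with hydrogen peroxide (adjusted p = 0.0492) and changed by 0.17 with interleukin (adjusted p = 0.660).

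Ddit4, also called REDD1, restrains the growth kinase mTORC1. It had 18869 and 18673 in interleukin cultures, 16330 and 18040 in hydrogen peroxide cultures and 12765 and 14716 in vehicle cultures. Both treatments lay above vehicle, and Ddit4 rose by 0.45 ± 0.10 with interleukin (log2, SE, adjusted p = 0.00954) and changed by 0.33 with hydrogen peroxide (adjusted p = 0.0750). The other members of this group did not pass in any comparison. They were the C/EBP partner Cebpg, the lipoprotein receptor Vldlr, the small stress protein Nupr1 and the translation repressor Eif4ebp1, with log2 changes between -0.22 and 0.30 for interleukin and between 0.05 and 0.27 for hydrogen peroxide. Dimmer probe sets of opposite sign, none of which passed, were 1451639_at of Cebpg (-0.09 for interleukin and -0.08 for hydrogen peroxide), 1417900_a_at and 1442169_at of Vldlr (-0.12 and -0.08 for interleukin) and 1419666_x_at of Nupr1 (-0.05 for hydrogen peroxide). Between the treatments 1451639_at of Cebpg gave -0.01 against 0.03 and 1417563_at of Eif4ebp1 gave -0.06 against 0.19 for the brightest probe set.

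None of the 4 genes that add or remove the eIF2alpha mark passed against vehicle by limma (1 lower with interleukin, Ppp1r15a, and 0 with hydrogen peroxide at an unadjusted p under 0.05). Of all genes 16.4% were called with interleukin and 6.99% with hydrogen peroxide. Ppp1r15a, the inducible phosphatase subunit GADD34, had 2194 and 2552 with interleukin, 3169 and 3746 with hydrogen peroxide and 2931 and 3031 with vehicle. The 3 groups did not overlap, with interleukin at the bottom, and the gene was lower with interleukin than with hydrogen peroxide by -0.54 ± 0.14 (log2, SE, adjusted p = 0.0327). Eif2ak4, which encodes GCN2, read 1630 and 813 in interleukin cultures, 1237 and 1406 in hydrogen peroxide cultures and 1118 and 1070 in vehicle cultures, so that the interleukin arrays lay above and below all others. The constitutive subunit Ppp1r15b and the kinase Eif2ak3 changed by 0.08 and -0.19 with interleukin and by -0.01 and -0.02 with hydrogen peroxide (log2). A probe set of Eif2ak3 too dim on average to be tested, 1453505_a_at, differed from this. It had 15.3 and 24.2 in interleukin cultures, 123.7 and 194.2 in hydrogen peroxide cultures and 243.4 and 307.5 in vehicle cultures. These are log2 changes of -3.83 for interleukin and -0.82 for hydrogen peroxide. A dimmer probe set of Ppp1r15b, 1436366_at, had 583.0 and 571.2 in interleukin cultures, 516.7 and 828.8 in hydrogen peroxide cultures and 910.6 and 960.4 in vehicle cultures. Both treatments lay below vehicle there, at -0.70 for interleukin (adjusted p = 0.0712) and -0.52 for hydrogen peroxide (adjusted p = 0.229), so the probe sets of this gene disagreed.

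**Figure D3:**
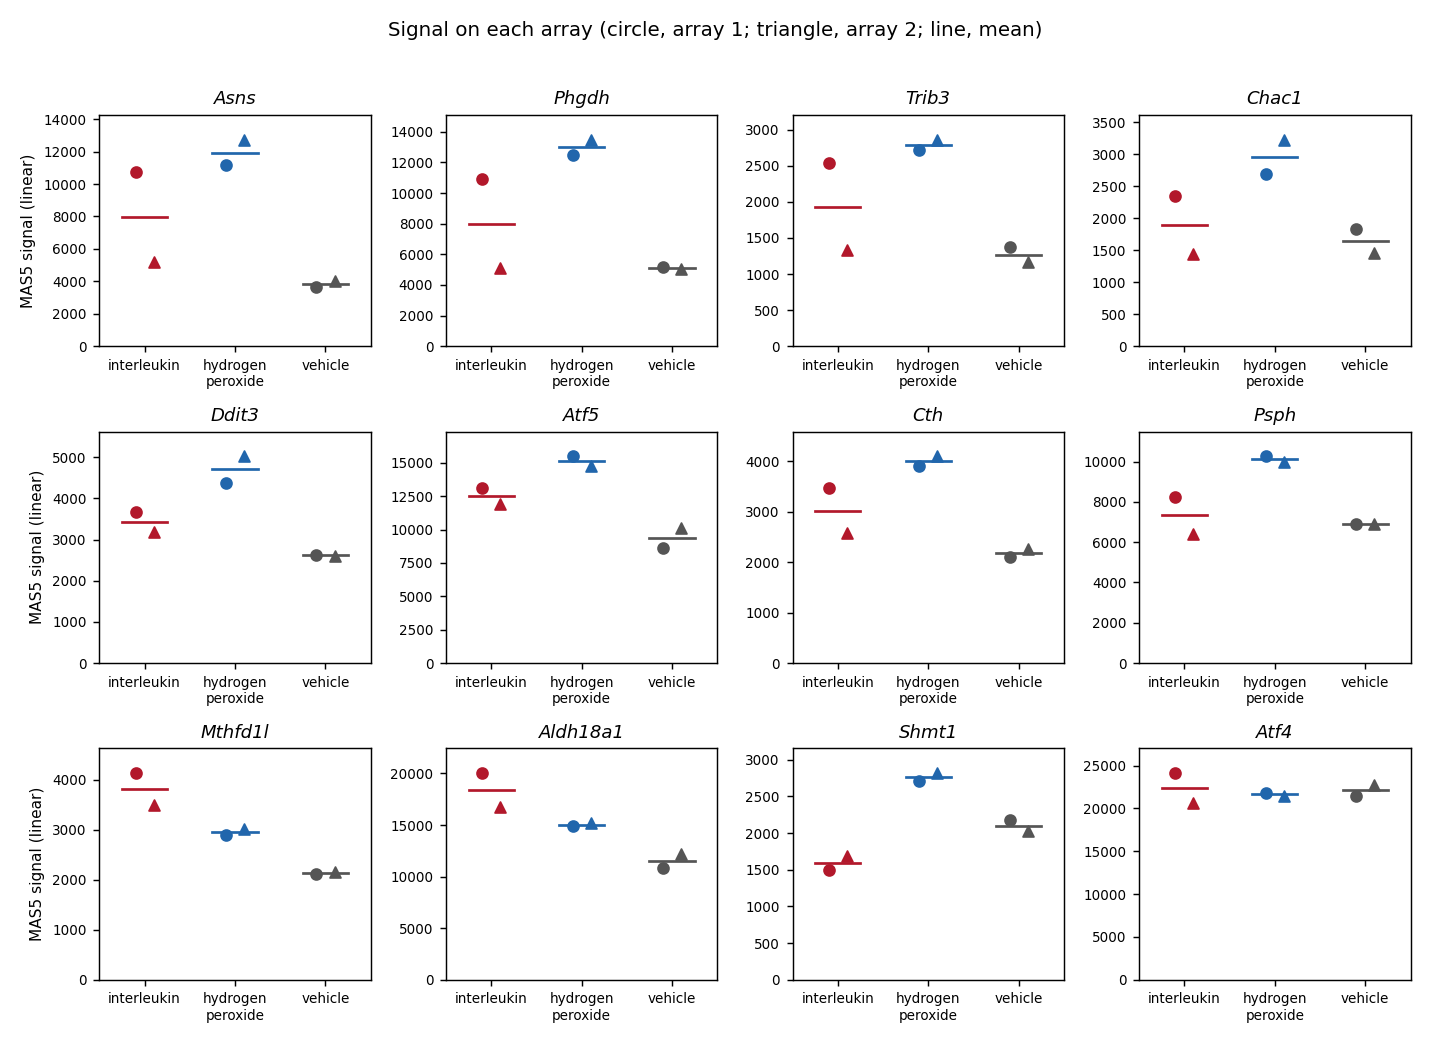
MAS5 signal (linear, axis from 0) of 12 genes on each array, with circles for array 1, triangles for array 2 and lines for the mean of each group. The hydrogen peroxide arrays of Asns (11146.5 and 12740) lie above the vehicle arrays (3654 and 4033), and the interleukin arrays (10723 and 5178) lie apart from each other; the groups of Atf4 overlap.

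The asparagine, proline and cysteine enzymes held the highest fold of the 37 genes with hydrogen peroxide. Asns (1451095_at), which makes asparagine from aspartate and glutamine, had 10723 and 5178 in interleukin cultures, 11147 and 12740 in hydrogen peroxide cultures and 3654 and 4033 in vehicle cultures. All treated arrays lay above both vehicle arrays. The gene rose by 1.63 ± 0.25 with hydrogen peroxide (log2, SE, n = 2 per group, adjusted p = 0.00594) and by 0.96 ± 0.25 with interleukin (adjusted p = 0.0278). Without interleukin array 1 the change with interleukin was 0.43 (adjusted p = 0.0653) and without interleukin array 2 it was 1.48 (adjusted p = 0.000261). The second probe set of Asns gave 1.83 (adjusted p = 0.00594) with hydrogen peroxide and 1.02 (adjusted p = 0.0346) with interleukin.

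Cth, the cystathionine lyase that releases cysteine, read 3470 and 2575 with interleukin, 3912 and 4096 with hydrogen peroxide and 2097 and 2260 with vehicle. It rose by 0.88 ± 0.15 with hydrogen peroxide (log2, SE, adjusted p = 0.00944) and changed by 0.46 with interleukin (adjusted p = 0.0646). The enzyme before it, Cbs, was dim, with 436 and 321 in interleukin cultures, 716 and 548 in hydrogen peroxide cultures and 346 and 341 in vehicle cultures, and did not pass (adjusted p = 0.798 and 0.0838). Another probe set of Cbs, 1425623_a_at, was too dim to be tested. It had 66.9 and 54.1 with interleukin, 350.7 and 440.3 with hydrogen peroxide and 202.7 and 222.4 with vehicle. Interleukin lay below vehicle there, whereas on the brighter probe set the interleukin and vehicle arrays overlapped. Aldh18a1, the first enzyme of proline synthesis, had 20027 and 16726 with interleukin, 14869 and 15222 with hydrogen peroxide and 10841 and 12196 with vehicle. The interleukin arrays were the highest here, and the gene rose by 0.67 ± 0.11 with interleukin (adjusted p = 0.00198) and changed by 0.39 with hydrogen peroxide (adjusted p = 0.0582). Of its 4 other probe sets 3 rose with interleukin (log2 0.62 to 0.91) and 1415836_at did not pass (0.38, adjusted p = 0.0550), while 1437333_x_at rose with hydrogen peroxide (0.59, adjusted p = 0.0456). All Aldh18a1 probe sets that rose are of the kind that can match related sequences, and 1415836_at is not.

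All 7 serine, glycine and one-carbon enzymes had both hydrogen peroxide arrays above both vehicle arrays, against 36.5% of all genes. By the test 3 of them rose, beside 4.08% of all genes. Phgdh (1454714_x_at), the first enzyme of serine synthesis, had 10900.3 and 5076 in interleukin cultures, 12494 and 13486 in hydrogen peroxide cultures and 5157 and 5023 in vehicle cultures. Interleukin array 1 stood near hydrogen peroxide and interleukin array 2 lay between the vehicle arrays. It rose by 1.35 ± 0.26 with hydrogen peroxide (log2, SE, adjusted p = 0.0155) and changed by 0.55 with interleukin (adjusted p = 0.185). All 4 of its tested probe sets rose with hydrogen peroxide, by 1.05 to 1.35, and 1 of them, 1456584_x_at, also rose with interleukin (0.83, adjusted p = 0.00205). Another, 1437621_x_at, was lower with interleukin than with hydrogen peroxide (-0.91, adjusted p = 0.0287). Probe sets of Phgdh are of the kind that can match related sequences.

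The next enzyme, Psat1, a transaminase, did not pass in any comparison, with log2 changes of 0.10 for interleukin (adjusted p = 0.657) and 0.43 for hydrogen peroxide (adjusted p = 0.0706). Psph, the phosphatase that completes serine synthesis, had 8247 and 6428 with interleukin, 10260.4 and 10000.1 with hydrogen peroxide and 6885 and 6882 with vehicle. The hydrogen peroxide arrays were the highest and the interleukin arrays spanned the vehicle arrays. Psph rose by 0.56 ± 0.12 with hydrogen peroxide (log2, SE, adjusted p = 0.0251) and was lower with interleukin than with hydrogen peroxide (-0.48, adjusted p = 0.0342).

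The serine hydroxymethyltransferases, which convert serine to glycine and load the folate carrier, were measured for both cell compartments. Shmt2, the mitochondrial form, read 13265 and 10321 in interleukin cultures, 12874 and 13906 in hydrogen peroxide cultures and 8071 and 8864 in vehicle cultures. It rose by 0.47 ± 0.12 with interleukin (log2, SE, adjusted p = 0.0262) and by 0.66 ± 0.12 with hydrogen peroxide (adjusted p = 0.0129), although none of its 3 dimmer probe sets passed (0.25 to 0.88 with interleukin, adjusted p = 0.119 to 0.306, and 0.10 to 0.70 with hydrogen peroxide, adjusted p = 0.103 to 0.778). Between the treatments 1455985_x_at and 1434204_x_at of Shmt2 gave 0.17 and 0.18, against -0.19 for the brightest probe set. These and the brightest are of the kind that can match related sequences, unlike the remaining probe set, 1426423_at. Shmt1, the cytosolic form, had 1496 and 1694 with interleukin, 2707 and 2817 with hydrogen peroxide and 2177 and 2023 with vehicle. Its 3 groups did not overlap, with interleukin at the bottom and hydrogen peroxide at the top, and it was lower with interleukin than with hydrogen peroxide by -0.80 ± 0.13 (log2, SE, adjusted p = 0.00443). Against vehicle it changed by -0.40 with interleukin (adjusted p = 0.0688), and 2 other probe sets, 1425179_at and 1422198_a_at, fell by 0.50 (adjusted p = 0.0390) and 0.69 (adjusted p = 0.0185). The probe set 1425177_at did not pass between the treatments (-0.47, adjusted p = 0.346), and there both hydrogen peroxide arrays (1897 and 2209) lay below both vehicle arrays (2401 and 2693), at -0.31 (adjusted p = 0.553). The difference between Shmt1 and Shmt2 was not tested.

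Mthfd1l and Mthfd2 carry formate production in mitochondria. Mthfd1l read 4136 and 3489 in interleukin cultures, 2889 and 3024 in hydrogen peroxide cultures and 2118 and 2161 in vehicle cultures. The interleukin arrays were the highest, and it rose by 0.83 ± 0.13 with interleukin (log2, SE, adjusted p = 0.00181), while hydrogen peroxide gave 0.47 (adjusted p = 0.0606). The interleukin call of Mthfd1l held in all 10 alternatives run on it other than leaving out 1 array. Calls of other genes held less often, down to 5 of 11 for Ddit3 between the treatments. The counts were 6 of 10 for Sars with hydrogen peroxide and 7 of 11 for Gars with interleukin. Mthfd2 did not pass in any comparison, at 0.16 for interleukin (adjusted p = 0.443) and 0.38 for hydrogen peroxide (adjusted p = 0.104).

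Aminoacyl-tRNA synthetases attach each amino acid to its tRNA, and 4 of the 12 cytosolic ones listed rose with hydrogen peroxide and 1 with interleukin. These are 33.3% and 8.33%, beside 4.08% and 9.78% of all genes, so that the share with interleukin was near that of all genes. Their median log2 change with hydrogen peroxide was 0.27, beside 0.47 for the 7 serine and one-carbon enzymes and 0.87 for the 4 asparagine, proline and cysteine enzymes. Gars, for glycine, had 15199 and 14574 with interleukin, 15603 and 15459 with hydrogen peroxide and 12258 and 12209 with vehicle. Its groups were tight, and it rose by 0.28 ± 0.08 with interleukin (log2, SE, adjusted p = 0.0400) and by 0.34 ± 0.08 with hydrogen peroxide (adjusted p = 0.0363). Eprs, which charges glutamate and proline, read 12906 and 10474 with interleukin, 13804 and 12776 with hydrogen peroxide and 8884 and 9510 with vehicle. It rose by 0.53 with hydrogen peroxide (adjusted p = 0.0228) and its 2 other tested probe sets gave 0.44 and 0.47 (adjusted p = 0.0545 and 0.143).

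Lars, for leucine, had 6942 and 6358 in interleukin cultures, 7190.0 and 8379 in hydrogen peroxide cultures and 5151 and 5768 in vehicle cultures, and rose by 0.51 with hydrogen peroxide (log2, adjusted p = 0.0311). Sars, for serine, read 13536 and 10635 with interleukin, 14356 and 14913 with hydrogen peroxide and 10169 and 11037 with vehicle, and rose by 0.47 with hydrogen peroxide (adjusted p = 0.0439), while its second probe set gave 0.51 (adjusted p = 0.0504). In these genes hydrogen peroxide arrays lay above vehicle arrays throughout. The other 8 synthetases did not pass in any comparison. The enzymes for tryptophan (Wars), isoleucine (Iars), asparagine (Nars) and methionine (Mars) changed by 0.14 to 0.35 with hydrogen peroxide and by -0.03 to 0.21 with interleukin. Those for alanine (Aars), cysteine (Cars), threonine (Tars) and tyrosine (Yars) changed by -0.08 to 0.07 with hydrogen peroxide and by -0.10 to 0.09 with interleukin, and of these 4 genes Aars, Tars and Yars hold the TGATGNAA letters described for the promoters. Dimmer probe sets of opposite sign, none of which passed, were 1427330_at of Cars (0.53 with hydrogen peroxide), 1428666_at of Nars (-0.19 with interleukin), 1425106_a_at of Wars (-0.09 with hydrogen peroxide) and 1415694_at of Wars (0.22 with interleukin). Between the treatments 1423685_at of Aars gave 0.03, against -0.09 for the brightest probe set.

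The arrays of the interleukin group differed from each other over these genes. Interleukin array 1 was above interleukin array 2 in 30 of the 37 genes, with a median log2 gap of 0.25, whereas over all 10892 genes array 1 was the higher in 47.8% and the median gap was -0.01. The corresponding counts were 13 of 37 for the hydrogen peroxide arrays (median gap -0.08) and 12 of 37 for the vehicle arrays (-0.06). The ratio of interleukin array 1 to interleukin array 2 was 2.15 in Phgdh, 2.07 in Asns, 2.01 in Eif2ak4, 1.91 in Trib3 and 1.63 in Chac1. These genes had the largest such gaps of the 37. Over all 10892 genes, a log2 gap of this size or more in that direction was found in 0.303% for Phgdh, 0.321% for Asns, 0.404% for Eif2ak4, 0.56% for Trib3 and 1.67% for Chac1. Among genes at least as bright, the shares were 0.0552%, 0.0959%, 0.0929%, 0.114% and 0.466% in the same order. Each share counts the gene itself, and the genes named were picked for the size of their gap, so the shares are not a test. Against the mean of the vehicle arrays the median of the 37 genes was 0.33 on interleukin array 1 and 0.03 on interleukin array 2, beside 0.35 and 0.41 (log2) on the hydrogen peroxide arrays. The beta-actin control ratio was 1.46 on interleukin array 1 and 1.55 on interleukin array 2, and its part in the gap was not tested.

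**Figure D4:**
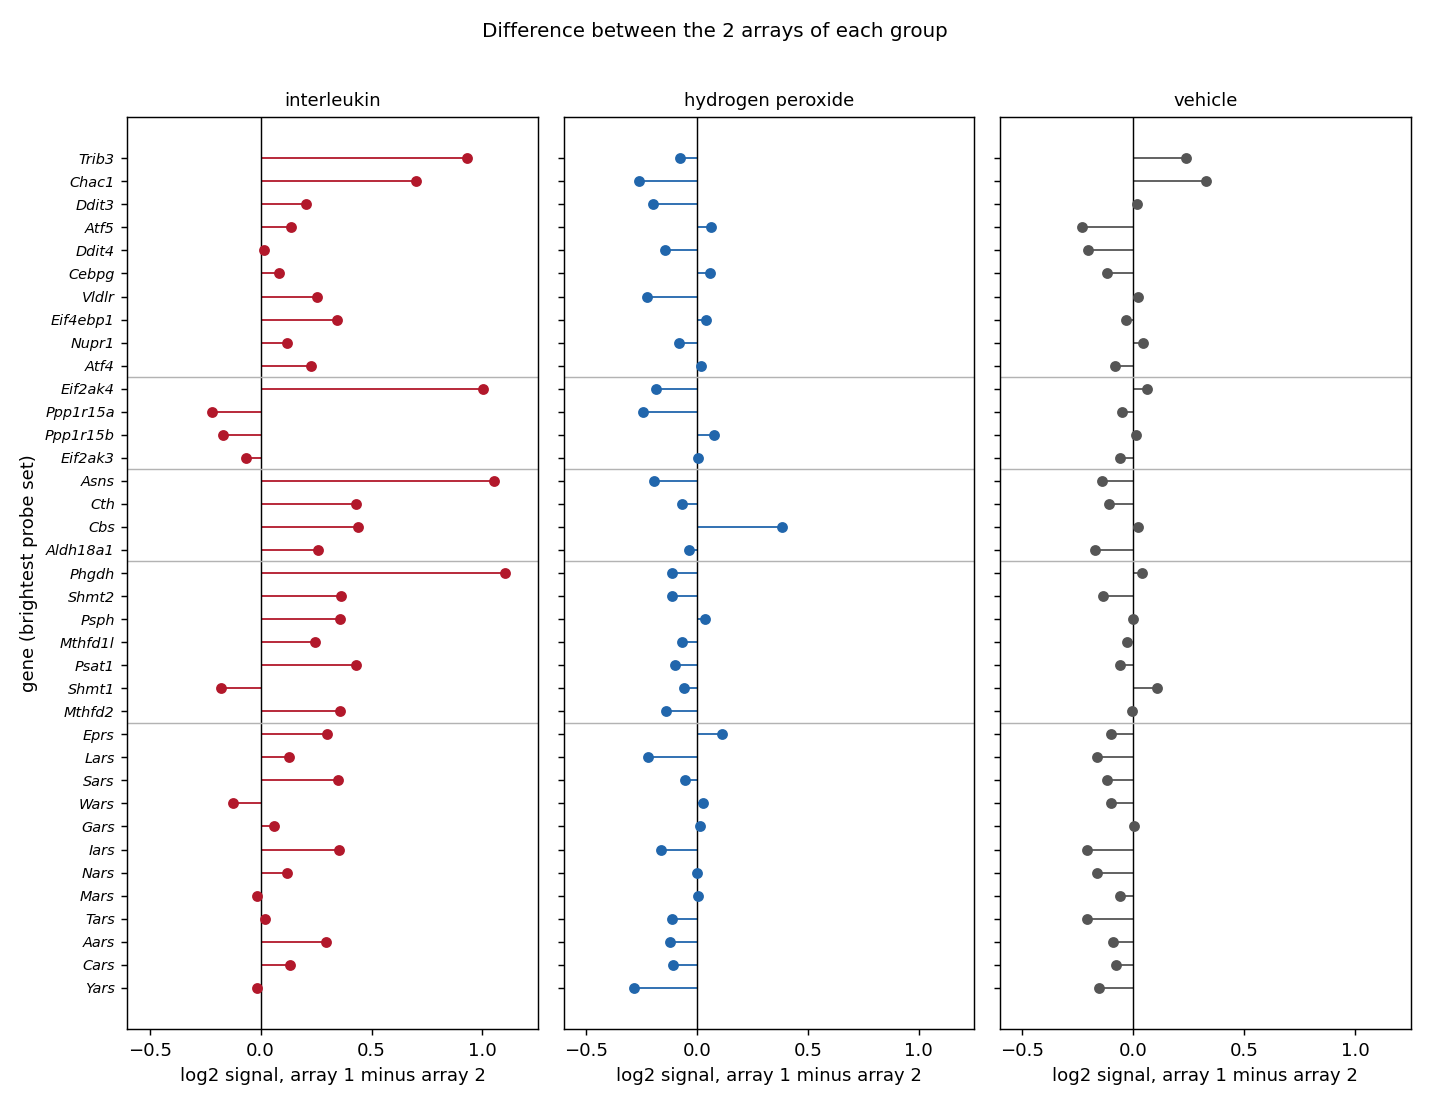
Difference in log2 signal between array 1 and array 2 of each group for each of the 37 genes (points, with lines from 0), by role. The interleukin panel reaches 1.10 in Phgdh and 1.05 in Asns and lies right of 0 in 30 genes; the hydrogen peroxide and vehicle panels lie right of 0 in 13 and 12 genes.

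Amino acid transporters known as ATF4 targets were examined beside these genes. Of 10 tested, 3 rose and 1 fell with hydrogen peroxide, and 1 rose and 0 fell with interleukin (1 lower at an unadjusted p under 0.05), beside 4.08% of all genes that rose with hydrogen peroxide and 9.78% with interleukin. The interleukin count of calls is near the share of all genes. Both interleukin arrays lay above both vehicle arrays in 7 of the 10 and below in 1, against 32.7% and 26.0% of all genes. The median log2 change with interleukin was 0.33 over the 10 and 0.03 over all genes. With hydrogen peroxide 7 lay above and 2 below, against 36.5% and 23.0%, and the medians were 0.43 and 0.06. Slc7a5, the large neutral amino acid transporter, had 3923 and 3081 in interleukin cultures, 6227 and 6642 in hydrogen peroxide cultures and 2872 and 3872 in vehicle cultures, and rose by 0.95 with hydrogen peroxide (log2, adjusted p = 0.00926). Slc7a3, which carries arginine and lysine, rose by 1.62 (adjusted p = 0.00672). Both were lower with interleukin than with hydrogen peroxide (-0.89, adjusted p = 0.00700, and -1.24, adjusted p = 0.0145). The glycine transporter Slc6a9 rose under both treatments, by 0.96 with interleukin (adjusted p = 0.00151) and 0.92 with hydrogen peroxide (adjusted p = 0.00594). Slc38a2, the glutamine and alanine transporter SNAT2, moved the other way and fell by 0.40 with hydrogen peroxide (adjusted p = 0.0112).

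Among 17 other stress genes known as ATF4 targets, 3 rose and 0 fell in each comparison with vehicle (1 lower in each at an unadjusted p under 0.05), against a share of all genes that was 9.78% with interleukin and 4.08% with hydrogen peroxide. With hydrogen peroxide they were heme oxygenase Hmox1 (log2 0.68, adjusted p = 0.0112), the oxidase of the endoplasmic reticulum Ero1l (0.72, adjusted p = 0.0194) and the tRNA exporter Xpot (0.48, adjusted p = 0.0245). With interleukin they were Ndrg1 (0.75, adjusted p = 0.000490), the growth factor Vegfa (0.94, adjusted p = 0.00128) and the transcription factor Nfe2l1 (0.79, adjusted p = 0.0129). Several of these genes are known to answer other factors as well, Hmox1 to NRF2 and Ndrg1 and Vegfa to hypoxia-inducible factors.

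The neighbouring arm of the stress response raises chaperones of the endoplasmic reticulum through XBP1 and ATF6. By limma 0 of its 20 genes were higher with hydrogen peroxide (3 at an unadjusted p under 0.05) and 1 was lower. These counts were near the shares of all genes, of which 4.08% rose and 2.91% fell. The median log2 change was -0.001 over the 20 genes. Edem1, which takes misfolded glycoproteins to degradation, was the gene that fell (-0.44, adjusted p = 0.0194), and it fell with interleukin too (-0.55, adjusted p = 0.00228). With interleukin 2 of the 20 rose, the sensor Atf6 (0.45, adjusted p = 0.0386) and the disulfide isomerase Pdia6 (0.31, adjusted p = 0.0425). The sensor Ern1 fell beside Edem1 (-0.34, adjusted p = 0.0301). Among all genes 9.78% rose and 6.61% fell with interleukin, so the count that rose was near the share of all genes. The 15 mitochondrial aminoacyl-tRNA synthetases tested had 0 called in any comparison by limma. Of all genes 16.4% were called with interleukin, 6.99% with hydrogen peroxide and 10.4% between the treatments. At an unadjusted p under 0.05 the synthetases had 1 higher and 2 lower with interleukin and 1 higher and 0 lower with hydrogen peroxide. Between the treatments they had 0 higher and 2 lower. Their median log2 changes were -0.01 for interleukin and 0.05 for hydrogen peroxide. Set directly against hydrogen peroxide, interleukin gave a median of -0.25 over these 15 genes, with 9 of them below on both arrays, beside the -0.20 of the 37 genes.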

How the data were processed

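RNA of As4.1 cells was measured on 6 Affymetrix mouse expression arrays, 2 separate cultures for each of interleukin, hydrogen peroxide and vehicle. The deposited values are MAS5 signals (linear intensity), made by the authors per the submitters' processing notes, with a software version not given in the sources used here. Each array had a 2% trimmed mean of 1500.01 in the deposited intensity values, so the arrays were already scaled to one another.

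Control probe sets were removed from the 45101 deposited probe sets, signals were put on the log2 scale without a pseudocount, and the 22519 probe sets at or above the median of the mean log2 signal (geometric mean of at least 193.7) were kept. Limma 3.58.1 in R 4.3.3 was fitted to all 6 arrays with group means, a variance trend on signal and Benjamini-Hochberg adjustment over all tested probe sets. A call means an adjusted p under 0.05, and the small number of arrays limits the precision of every value. The 2 comparisons with vehicle share the vehicle arrays. The fit was tested on simulated data.

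Probe sets were named from the platform annotation, in which 34945 had 1 gene symbol, 932 several and 9160 none, and those with several were not used. Each gene is given by whichever of its probe sets was brightest by mean log2 signal. Every listed gene is accounted for, and those called are given with all arrays. Other tested probe sets are named where their call or direction differs. Apart from 1453505_a_at of Eif2ak3 and 1425623_a_at of Cbs, probe sets of the listed genes too dim to be tested are left out. Some of the dim probe sets had larger changes than the brightest one or changes of the opposite sign. From each pathway list up to 4 called genes of smallest p are named for each comparison with vehicle. The genes and lists were chosen with earlier results of these data known. Promoter sequences are RefSeq's, build GRCm38.p6. Alternatives changed the scaling, the filter, the variance model, the probe sets, the replicate block and the arrays used. Group members with equal replicate numbers deviated together only weakly or oppositely (correlations of -0.129 for interleukin and hydrogen peroxide, 0.0535 for interleukin and vehicle, and 0.107 for hydrogen peroxide and vehicle), so the numbers were not taken as pairs.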

Additional observations from a re-analysis of the deposited data

How the results depend on the processing

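Over 402 alternatives run on the 24 gene results that passed the test, 402 kept their direction, 277 kept the call and 125 lost it. With 1 array left out 72 of 144 kept the call, and under the other alternatives 205 of 258 did. Of the 37 genes the number called without 1 array ranged over 2 to 11 for interleukin minus vehicle, 0 to 17 for hydrogen peroxide minus vehicle and 1 to 10 for interleukin minus hydrogen peroxide. The probe sets called over the whole array ranged over 1554 to 3583, 235 to 1751 and 839 to 1919 in the same order, beside 3627, 1282 and 1987 with all arrays. Without a variance trend limma called 1783, 57 and 716 probe sets, and 2, 0 and 1 of the genes. Without a filter on signal it called 4, 7 and 1 of the genes, and 762 probe sets for hydrogen peroxide minus vehicle. Leaving out probe sets able to match several transcripts, it called 3 genes for interleukin minus vehicle and 8 genes and 825 probe sets for hydrogen peroxide minus vehicle. A fit to the 4 arrays of the groups compared called 1 gene for interleukin minus hydrogen peroxide. The cause of these changes was not tested. With the replicate block 3342, 1170 and 1756 probe sets were called, and 11 of the genes for hydrogen peroxide minus vehicle and 3 for interleukin minus hydrogen peroxide. Centring on the 75th percentile gave 602 probe sets higher and 879 lower for hydrogen peroxide minus vehicle, against 686 and 596, and 1278 higher and 739 lower for interleukin minus hydrogen peroxide, against 1115 and 872.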

Other observations

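Outside the list, 12 enzymes of the folate and methionine cycles were tested. With interleukin 4 of the 12 rose and 0 fell (1 lower at an unadjusted p under 0.05). With hydrogen peroxide 3 rose and 0 fell (1 lower at an unadjusted p under 0.05). Of all genes 9.78% rose and 6.61% fell with interleukin, and 4.08% rose and 2.91% fell with hydrogen peroxide. The difference of the counts from these shares was not tested. Aldh1l1, the cytosolic formyltetrahydrofolate dehydrogenase, had 2601 and 2581 in interleukin cultures, 911.0 and 809.8 in hydrogen peroxide cultures and 617.0 and 713.9 in vehicle cultures. It rose by 1.97 with interleukin (log2, limma adjusted p = 3e-05) and was higher with interleukin than with hydrogen peroxide (1.59, adjusted p = 0.000163). Its mitochondrial relative Aldh1l2 read 10615 and 5722 with interleukin, 10046 and 12641 with hydrogen peroxide and 4157 and 4561 with vehicle. It rose by 0.84 with interleukin (adjusted p = 0.0320) and 1.37 with hydrogen peroxide (adjusted p = 0.00837), and interleukin array 1 was 1.86 times interleukin array 2, as the arrays also stood apart in Asns and Phgdh. Methionine synthase Mtr had 665.6 and 567.0 with interleukin, 1221 and 1423 with hydrogen peroxide and 687.1 and 742.9 with vehicle, and rose by 0.88 with hydrogen peroxide (adjusted p = 0.0222). The mitochondrial dehydrogenase Mthfd2l (0.68, adjusted p = 0.0137) and Ahcy, which clears S-adenosylhomocysteine (0.32, adjusted p = 0.0228), rose with interleukin, and the purine enzyme Atic rose with hydrogen peroxide (0.38, adjusted p = 0.0340).

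Among 11 tested genes of eIF2, its exchange factor eIF2B and other eIF2alpha kinases, 2 rose with interleukin and 1 with hydrogen peroxide. These are 18.2% and 9.09%, beside 9.78% and 4.08% of all genes, and the difference from those shares was not tested. Eif2ak2 encodes PKR, the kinase that senses double-stranded RNA. It had 4784 and 4000.1 in interleukin cultures, 2306 and 2871 in hydrogen peroxide cultures and 1822 and 1658 in vehicle cultures. The 3 groups did not overlap, and Eif2ak2 rose by 1.33 with interleukin (log2, adjusted p = 0.000259), changed by 0.57 with hydrogen peroxide (adjusted p = 0.0545) and was higher with interleukin than with hydrogen peroxide (0.77, adjusted p = 0.0103). The eIF2B subunit Eif2b2 rose with interleukin (0.36, adjusted p = 0.0476) and the subunit Eif2b3 with hydrogen peroxide (0.66, adjusted p = 0.0207). Of 10 other cytosolic synthetases and scaffold proteins, 1 fell with interleukin and 1 rose with hydrogen peroxide, beside 6.61% and 4.08% of all genes. They were the phenylalanine enzyme Farsa (log2 -0.39, adjusted p = 0.0132) and the scaffold protein Eef1e1 (0.44, adjusted p = 0.0472).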
